A study of Mus musculus with 6 samples.

Results

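The genes described here are those of 3 families of secreted and membrane proteins that steer growing axons: the ephrins and their Eph receptors, the Slits and their Robo receptors, and the netrins with their receptors DCC and UNC5. They were taken by gene symbol, with earlier results of these data known, which gave 40 genes of the 32719 in the count files, in 9 subfamilies. RNA had been sequenced from the vagal jugular-nodose ganglia of wild-type male C57BL/6J mice, in 3 treated and 3 control libraries. Treated mice carried a subcutaneous osmotic pump that delivered the insulin receptor antagonist S961 in PBS, at 10 nmol per week for 2 weeks, and control mice a pump with PBS alone. The titles and the protocol give that split, since all 6 libraries carry S961 as their treatment label. The labels state neither ages nor whether a library is 1 animal or a pool, so the p-values measure the spread between these libraries, which may be technical.

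In this system a ligand on one cell meets a receptor on an axon or on a neighbouring cell, and the growth cone is drawn in or repelled. Ephrin-A ligands are held in the membrane by a lipid anchor and chiefly bind EphA receptors, while ephrin-B ligands cross the membrane and chiefly bind EphB receptors, and both sides can signal. Slits are secreted and repel axons through Robo receptors. Secreted netrins attract axons through DCC and repel them through the UNC5 receptors. Many of these genes stay active in adult sensory ganglia, and several are also used by blood vessels, fibroblasts and glia.

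The libraries held 12898607 to 33522486 gene counts, and treated replicate 3 was the smallest. Levels below are CPM values, that is, gene counts relative to library size, with edgeR's TMM scaling. Across 12197 genes above a log2 CPM of 2, treated replicate 3 correlated with the other 5 libraries at 0.920 to 0.944, against 0.968 to 0.989 among those 5. It also held the most fat cell transcripts, with 6 markers summing to 5.36, 61.5 and 531 CPM in treated replicates 1, 2 and 3, against 36.1, 3.65 and 20.7 CPM in the controls. Fibroblast markers summed to 476, 739 and 2138 CPM in the treated libraries, against 887, 658 and 1136 CPM in the controls. A list of 7 nerve injury genes summed to 284, 519 and 496 CPM in treated libraries, against 139, 143 and 124 CPM in controls. That list was chosen with earlier results of these data known, so its separation of the groups is only a description. Its part in the values below was not tested. Source and tissue labels read spinal cord, whereas the cell labels name the ganglia. Prph, taken here as a marker of vagal sensory neurons, stood at 1398 to 1701 CPM in treated and 1568 to 1817 CPM in control libraries. Of 8 markers of the central nervous system, 6 were too low to be tested, the oligodendrocyte genes Mog, Olig1 and Olig2 among them. Opalin, also of oligodendrocytes, had 5, 0 and 16 counts in treated libraries and 0 in every control. The astrocyte gene Aqp4 was detected, at 10.7 to 12.3 CPM in treated and 9.63 to 12.8 CPM in control libraries. Chat, the other tested marker of that list, had 0 to 0.476 CPM in treated and 0.287 to 1.42 CPM in control libraries.

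Of the 40 guidance genes, 37 had enough counts to be tested, and none of them passed at an adjusted p of 0.05 (edgeR quasi-likelihood test, Benjamini-Hochberg over 16019 genes), where 0% of all genes passed. The smallest adjusted p among them was 0.482, for Slit3. By DESeq2, which called 0.567% of the genes for which it gave an adjusted p, 1 guidance gene passed, again Slit3. With no low-count filter edgeR called 0.0941% of all genes and no guidance gene. At an unadjusted p under 0.05, 5 of the 37 stood apart in edgeR (13.5%), against 6.67% of all genes: Slit1 and Ntn5 were higher in treated ganglia, as were 4.0% of all genes, and Slit3, Efna5 and Unc5b lower, as were 2.67%. In 8 of the 37 (21.6%) the 3 treated libraries lay wholly to one side of the 3 controls, against 14.7% of all genes. Those 8 were Slit1, Ntn5 and Epha7 above the controls, where 7.07% of all genes lay, and Slit3, Efna5, Unc5b, Unc5c and Unc5d below them, where 7.63% lay. The exact two-sided permutation p of each of the 8 was 0.1, the smallest that 3 libraries against 3 can give. Log2 fold changes were positive for 20 guidance genes and negative for 17, against 52.8% and 47.2% of all genes, with a median of 0.04, against 0.02 over all genes tested. The median size of the change, regardless of sign, was 0.28 against 0.16 over all genes tested. In whole-ganglion RNA, fewer cells of a type and less RNA per cell cannot be told apart.

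**Figure D1:**
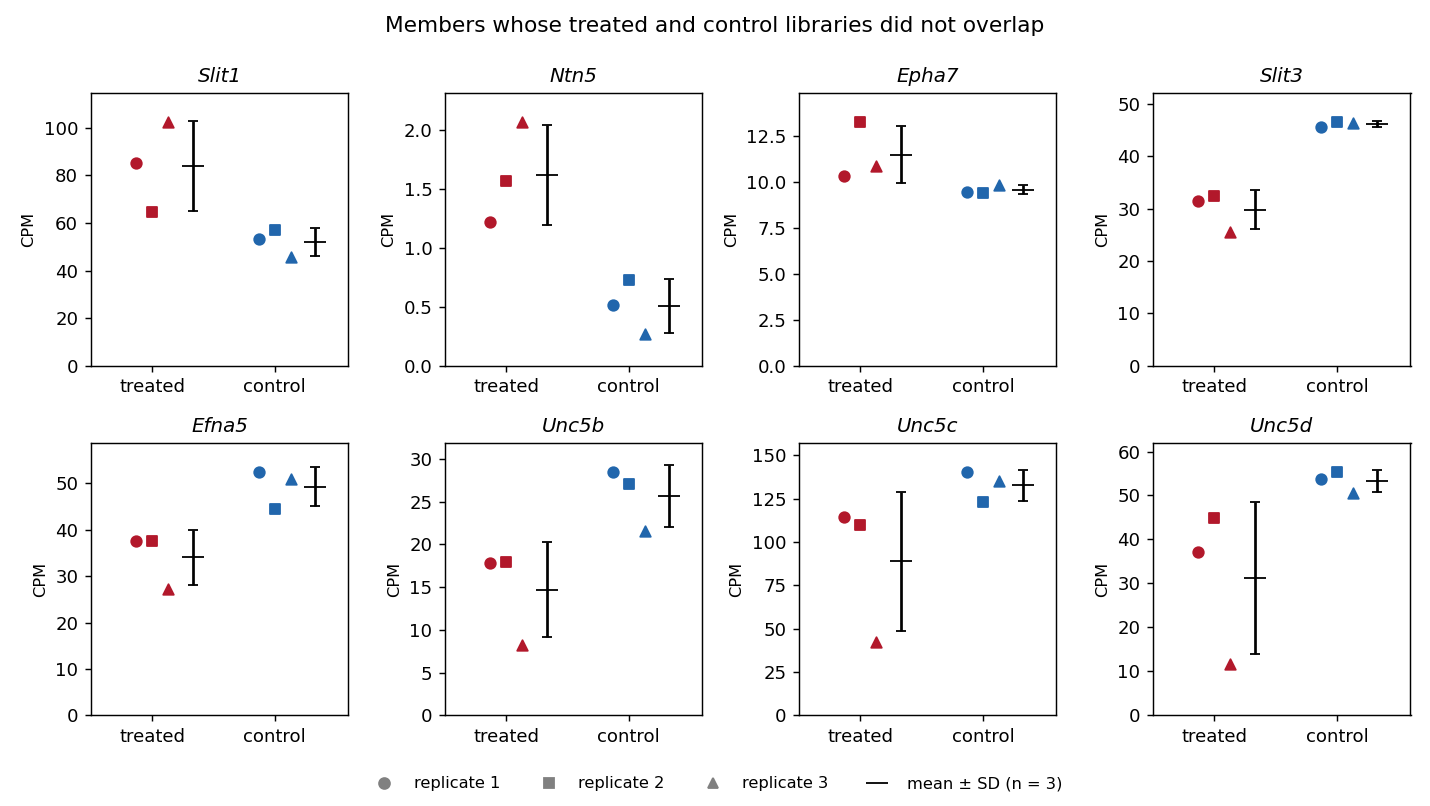
CPM (vertical axes, from 0) of the 8 guidance genes whose treated and control libraries did not overlap, with 1 marker per library and the mean ± SD (n = 3) beside each group. Slit1 lies at 64.4 to 102 CPM in treated against 45.6 to 57.2 CPM in control libraries, and treated replicate 3 is the lowest point for Slit3, Efna5, Unc5b, Unc5c and Unc5d.

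Among the Slit ligands, Slit1 and Slit3 differed in opposite directions. Slit1 (ENSMUSG00000025020, chromosome 19, 41600257 to 41743665, minus strand, GRCm38), a secreted repellent made mainly by neurons, had 85.2, 64.4 and 102 CPM in treated replicates 1, 2 and 3, against 53.1, 57.2 and 45.6 CPM in control replicates 1, 2 and 3. Treated libraries lay above every control, although treated replicate 2 was only slightly above control replicate 2. The log2 fold change was 0.69 ± 0.17 (SE), a fold of 1.61, at an edgeR adjusted p of 0.621 and an unadjusted p of 0.00459. Without treated replicate 3 the log2 fold change was 0.52.

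Slit3 (ENSMUSG00000056427, chromosome 11, 35121224 to 35708507, plus strand), which is also made by vessel wall and connective tissue cells, had 31.5, 32.5 and 25.5 CPM in treated libraries, against 45.6, 46.5 and 46.4 CPM in controls. The treated mean was 29.8 ± 3.76 CPM and the control mean 46.2 ± 0.518 CPM (SD, n = 3 each), so the controls lay close together and every treated library was below them. Its log2 fold change of -0.63 ± 0.11 (SE) had an edgeR adjusted p of 0.482 and a DESeq2 adjusted p of 0.00496. Over all settings tried it stayed between -0.70 and -0.53. The fibroblast markers given above were highest in treated replicate 3, where Slit3 was lowest, and their part was not tested. Without that library Slit3 was at -0.53.

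Slit2, the remaining Slit, had 27.6, 43.0 and 23.9 CPM in treated libraries, against 41.2, 38.4 and 35.9 CPM in controls. These overlapped, since treated replicate 2 was above all controls, and the log2 fold change was -0.29 ± 0.21 (SE, edgeR adjusted p = 0.773). The summed level of the 3 Slits was 144, 140 and 152 CPM in treated libraries and 140, 142 and 128 CPM in controls, and these overlapped. Because Slit1 and Slit3 were counted in the same library, their ratio needs no scaling. There were 2.71, 1.98 and 4.01 Slit1 counts per Slit3 count in the treated libraries, against 1.17, 1.23 and 0.983 in the controls. This ratio was chosen after the values were seen and is given as a description.

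Levels of different genes were compared per kilobase of annotated exon (CPM per kb), which understates genes with long rarely used exons such as Slit2, whose exon union spans 25433 bases. On that scale Slit1 made up 69.1 ± 8.19% of the Slit total in treated ganglia and 48.9 ± 2.72% in controls (SD, n = 3 each). The share of Slit3 was 24.6 ± 5.58% in treated and 42.6 ± 2.65% in control ganglia, and neither share overlapped between the groups. These shares restate the Slit1 and Slit3 values above and are not a further result.

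**Figure D2:**
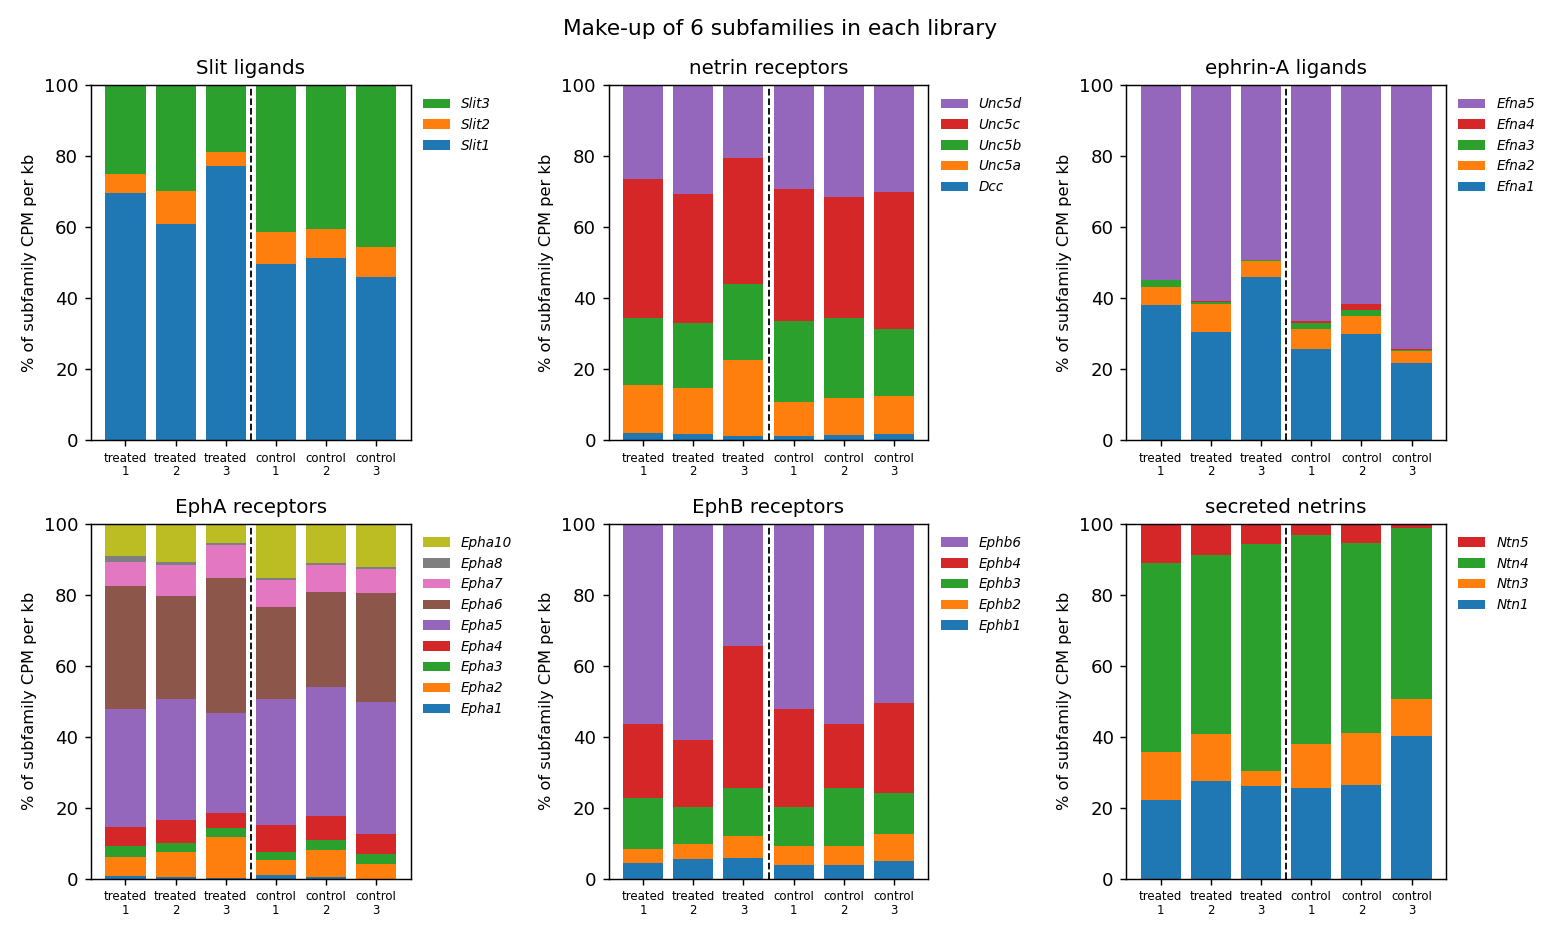
Share of each gene in the summed CPM per kb of its subfamily (vertical axes, percent), with 1 stacked bar per library, treated left of the dashed line and control right of it. Shown are the Slit ligands, netrin receptors, ephrin-A ligands, EphA receptors, EphB receptors and secreted netrins. Slit1 takes 60.7% to 77.1% of the Slit total in treated and 45.9% to 51.3% in control libraries. Unc5c takes 35.7% to 39.2% of the netrin receptor total in treated and 33.9% to 38.7% in control libraries.

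The Robo receptors, which bind Slits, held the most abundant guidance gene per kilobase. Robo2 (ENSMUSG00000052516, chromosome 16, 73891839 to 74411825, minus strand), a receptor widely used by sensory axons, had 322, 297 and 242 CPM in treated libraries, against 290, 274 and 262 CPM in controls. The groups overlapped, with treated replicate 3 the lowest of all 6, and the log2 fold change was 0.06 ± 0.12 (SE, edgeR adjusted p = 0.920). Robo2 made up 84.3 ± 1.85% of the Robo total per kilobase in treated and 86.1 ± 1.19% in control ganglia (SD, n = 3 each). Robo1, a Slit receptor of many neurons, averaged 32.8 ± 8.27 CPM in treated and 29.5 ± 2.99 CPM in control ganglia, at 0.16 ± 0.19 (SE). Robo3, known for its role in axons that cross the midline, had only 54 counts over the treated and 43 over the control libraries. Robo4, a receptor of endothelial cells, had 3.45, 4.74 and 7.56 CPM in treated libraries, against 4.59, 4.27 and 2.77 CPM in controls. Its log2 fold change was 0.42 ± 0.36 (SE, edgeR adjusted p = 0.787), and 0.07 without treated replicate 3. The 8 endothelial markers summed to 150, 186 and 196 CPM in treated and 165, 176 and 153 CPM in control libraries, and their part in the Robo4 values was not tested. Robo3 and Robo4 are neighbours on chromosome 9, with 553 bases between them.

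Among the netrin receptors all 5 log2 fold changes were negative, with a median of -0.57, against 47.2% of all genes with a negative one. In 3 of the 5 the treated libraries lay below every control, against 7.63% of all genes. Without treated replicate 3, Unc5a stood at 0.12 and Dcc at -0.01, so 4 of the 5 were then negative. Unc5c (ENSMUSG00000059921, chromosome 3, 141465216 to 141834924, plus strand), which mediates repulsion by netrin-1, was the most abundant of them per kilobase. It had 114, 110 and 42.6 CPM in treated libraries, against 141, 123 and 135 CPM in controls. Treated replicates 1 and 2 were slightly below the lowest control, and treated replicate 3 far below it. The log2 fold change was -0.57 ± 0.36 (SE, edgeR adjusted p = 0.750), and -0.24 without treated replicate 3.

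Unc5d (ENSMUSG00000063626, chromosome 8, 28646717 to 29219636, minus strand), a further receptor of this class that also binds FLRT proteins, had 37.1, 45.0 and 11.8 CPM in treated libraries, against 53.8, 55.4 and 50.6 CPM in controls. All treated libraries were below the controls, with treated replicate 3 lowest. The log2 fold change was -0.75 ± 0.45 (SE, edgeR adjusted p = 0.746), and -0.38 without treated replicate 3.

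Unc5b (ENSMUSG00000020099, chromosome 10, 60762593 to 60831581, minus strand), which is also used by endothelial tip cells, had 17.8, 17.9 and 8.27 CPM in treated libraries, against 28.5, 27.0 and 21.6 CPM in controls. Here treated replicates 1 and 2 agreed closely and stood below every control. The log2 fold change was -0.79 ± 0.29 (SE), a fold of 0.577, at an edgeR adjusted p of 0.721 and an unadjusted p of 0.0268. Without treated replicate 3 it was -0.52, and over all settings it ran from -0.96 to -0.52. RefSeq promoters are shown for Unc5b, Ntn5 and Efna5, which are the genes at an unadjusted p under 0.05 whose window was found and overlaps no annotated exon. Each is given as the 250 bases before the start of transcription, with matches to a GC box (GGGCGG on either strand) in capitals. That of Unc5b lies at chr10:60831582-60831831 (GRCm38.p6, minus strand), is written 5′ to 3′, and holds 66.8% G and C and 2 GC boxes.

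Unc5b: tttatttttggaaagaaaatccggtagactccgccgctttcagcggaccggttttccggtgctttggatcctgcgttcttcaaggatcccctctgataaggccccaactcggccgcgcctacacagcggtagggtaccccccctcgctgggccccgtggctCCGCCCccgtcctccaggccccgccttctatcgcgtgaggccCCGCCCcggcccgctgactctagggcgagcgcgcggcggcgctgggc

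Unc5a and Dcc, the other two netrin receptors, overlapped between the groups. Unc5a, a neuronal receptor, had 8.72, 8.57 and 5.57 CPM in treated libraries, against 7.80, 8.04 and 8.04 CPM in controls, and a log2 fold change of -0.05 ± 0.21 (SE). That direction turned to 0.12 without treated replicate 3 and to 0.09 with sample weights. Dcc, the attractive netrin receptor, was scarce, with 236 counts over the treated and 211 over the control libraries. Its log2 fold change was -0.39 ± 0.48 (SE), and -0.01 without treated replicate 3. Unc5c thus had 13.1, 12.8 and 7.64 counts per Unc5a count in treated libraries, against 18.0, 15.3 and 16.8 in controls, a ratio also chosen after the values were seen. Of the vagal neuron markers, P2rx2 resembled Unc5b, Unc5c and Unc5d in being lowest in treated replicate 3 and below every control. This gene, for an ATP-gated channel of nodose neurons, had 160, 177 and 81.7 CPM in treated libraries, against 208, 206 and 205 CPM in controls. Markers of sympathetic neurons and glomus cells were lower too: their 5 genes summed to 87.0, 89.5 and 56.7 CPM in treated and 138, 122 and 124 CPM in control libraries. The whole list of 10 vagal neuron markers summed to 3600 to 4525 CPM in treated and 4046 to 4391 CPM in control libraries. The part of these neurons in the Unc5 values was not tested.

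Of the secreted netrins, Ntn3 and Ntn5 were low, and the levels of Ntn1 and Ntn4 varied with the library. Ntn5 (ENSMUSG00000070564, chromosome 7, 45684022 to 45694556, plus strand), a little-studied member of the netrin family, had 1.22, 1.57 and 2.07 CPM in treated libraries, against 0.516, 0.731 and 0.270 CPM in controls. These rest on 41, 45 and 26 counts in treated and 9, 19 and 4 counts in control libraries. The log2 fold change was 1.62 ± 0.52 (SE), a fold of 3.07, at an edgeR adjusted p of 0.676 and an unadjusted p of 0.0145, and over all settings it ran from 1.34 to 1.99. Of its exon bases 23.4% are shared with Sec1 on the opposite strand, and although the kit marks strand, no source used here gives the strand setting of the counting, so reads of the pair may have been split or mixed. Sec1 itself had 2, 10 and 16 counts in treated and 5, 11 and 9 counts in control libraries. The promoter of Ntn5 lies at chr7:45683772-45684021 (GRCm38.p6, plus strand), has 52.8% G and C, close to the median of 52.4% over all 32851 RefSeq windows, and holds no GC box, so no letter is in capitals.

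Ntn5: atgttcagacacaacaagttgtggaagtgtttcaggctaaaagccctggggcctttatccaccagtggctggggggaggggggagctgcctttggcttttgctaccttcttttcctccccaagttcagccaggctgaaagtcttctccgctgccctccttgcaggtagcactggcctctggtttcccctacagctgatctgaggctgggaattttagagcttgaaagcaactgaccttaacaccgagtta

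Ntn4 (ENSMUSG00000020019, chromosome 10, 93640681 to 93747207, plus strand), a netrin of basement membranes, was the most abundant secreted netrin per kilobase. It had 9.85, 15.3 and 38.7 CPM in treated libraries, against 16.7, 12.2 and 17.2 CPM in controls. Treated replicate 3 alone was above the controls, and the log2 fold change of 0.45 ± 0.50 (SE, edgeR adjusted p = 0.838) was -0.29 without it and -0.16 with sample weights. Ntn1, the founding netrin, had 6.87, 14.0 and 26.6 CPM in treated libraries, against 12.2, 10.1 and 24.0 CPM in controls. Its log2 fold change of 0.03 ± 0.55 (SE) was -0.55 without treated replicate 3. Ntn1 and Ntn4 were thus highest where the fibroblast markers were highest, in treated replicate 3 and, among the controls, in control replicate 3. For Ntn4 control replicate 3 was only slightly above control replicate 1. The part of fibroblasts in those values was not tested. Ntn3, a netrin described in sensory ganglia, averaged 4.12 ± 1.17 CPM in treated and 4.78 ± 0.255 CPM in control ganglia (SD, n = 3 each), at -0.21 ± 0.27 (SE).

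The netrin-G proteins are lipid-anchored relatives that bind NGL adhesion proteins rather than DCC or UNC5. Ntng2 (ENSMUSG00000035513, chromosome 2, 29194541 to 29253005, minus strand), the higher of the pair in mean level per kilobase, had 35.3, 29.7 and 28.2 CPM in treated libraries, against 35.1, 35.8 and 28.0 CPM in controls. The groups overlapped fully, at -0.09 ± 0.14 (SE, edgeR adjusted p = 0.896). The annotated transcript 6530402F18Rik on the same strand shares 14.0% of the Ntng2 exon bases and was not analysed here. Ntng1, which binds the adhesion protein NGL-1, had 55.8, 64.4 and 47.7 CPM in treated libraries, against 70.3, 66.9 and 63.4 CPM in controls. Treated replicate 2 lay above control replicate 3, and the log2 fold change was -0.25 ± 0.12 (SE, edgeR adjusted p = 0.737). Per kilobase, Ntng1 was above Ntng2 in treated replicate 2, at 7.81 against 7.46 CPM per kb. The same held in control replicate 3, at 7.69 against 7.01 CPM per kb.

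Among the ephrin-A ligands, Efna5 stood lower in treated ganglia. Efna5 (ENSMUSG00000048915, chromosome 17, 62604184 to 62881317, minus strand), a repellent that sets up topographic nerve maps, had 37.6, 37.5 and 27.2 CPM in treated libraries, against 52.5, 44.5 and 50.9 CPM in controls. The groups did not overlap, and treated replicate 3 was again lowest. Its log2 fold change was -0.53 ± 0.14 (SE), a fold of 0.694, at an edgeR adjusted p of 0.642 and an unadjusted p of 0.0071. Without treated replicate 3 it was -0.39, and over all settings it ran from -0.61 to -0.39. Efna5 was the most abundant ephrin per kilobase, at 8.45 ± 1.48 CPM per kb in treated and 12.2 ± 1.05 CPM per kb in control ganglia (SD, n = 3 each). Its promoter lies at chr17:62881318-62881567 (GRCm38.p6, minus strand), with 74.8% G and C and 4 GC boxes in capitals.

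Efna5: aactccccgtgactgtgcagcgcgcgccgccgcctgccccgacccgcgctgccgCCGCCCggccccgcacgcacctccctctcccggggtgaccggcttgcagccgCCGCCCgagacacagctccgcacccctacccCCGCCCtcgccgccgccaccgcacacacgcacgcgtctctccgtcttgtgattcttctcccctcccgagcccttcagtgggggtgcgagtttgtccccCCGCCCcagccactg

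Over the 40 RefSeq promoter windows found for 35 of the guidance genes, 27 (67.5%) held a GC box, against 32.7% of all windows of the same length. Their median G and C content was 64.6%. The AP-1 motif TGANTCA, searched on both strands, was in 0 of the 40 windows and in 6.75% of all windows. The CRE TGACGTCA was in 1 window, that of Epha2, and in 1.55% of all windows, and the TATA box TATAAA in 2, those of Efnb2 and Slit2, and in 12.4% of all windows. A match describes letters only.

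The other ephrin-A genes were lower in level. Efna1, which is also made by endothelium, averaged 10.6 ± 1.83 CPM in treated and 8.55 ± 1.58 CPM in control ganglia (SD, n = 3 each), at 0.30 ± 0.21 (SE). Efna2 was at 0.04 ± 0.43 and Efna3 at -0.30 ± 0.79 (SE), and Efna3 had 34 counts over the treated and 31 over the control libraries. Efna4 was too low to be tested, with 1, 2 and 0 counts in treated and 4, 13 and 2 counts in control libraries. Antisense transcripts on the opposite strand share 14.1% of the exon bases of Efna3 and 10.5% of those of Efna4. Efna1, Efna3 and Efna4 lie within 66296 bases on chromosome 3. Along with the lower Efna5, the share of Efna1 in the ephrin-A total per kilobase was 38.1 ± 7.80% in treated and 25.7 ± 4.02% in control ganglia (SD, n = 3 each).

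The ephrin-B ligands showed no separation of the groups, against 14.7% of all genes that did. Efnb1 (ENSMUSG00000031217, chromosome X, 99136130 to 99148991, plus strand), which signals in both directions with EphB receptors, had 17.2, 20.3 and 37.5 CPM in treated libraries, against 21.6, 23.3 and 23.4 CPM in controls. Treated replicates 1 and 2 were below every control and treated replicate 3 above them. Its log2 fold change of 0.12 ± 0.28 (SE, edgeR adjusted p = 0.928) was -0.28 without treated replicate 3. Efnb2, a marker of arteries, averaged 25.2 ± 3.36 CPM in treated and 23.1 ± 1.76 CPM in control ganglia (SD, n = 3 each), at 0.12 ± 0.13 (SE). Efnb3 had 1.61, 2.86 and 5.25 CPM in treated libraries, against 3.50, 3.42 and 4.73 CPM in controls. It was at -0.28 ± 0.44 (SE), and at -0.80 without treated replicate 3.

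The EphA receptors, which bind the ephrin-A ligands, were led by Epha5 and Epha6. Epha5 (ENSMUSG00000029245, chromosome 5, 84054761 to 84417382, minus strand), a neuronal receptor of ephrin-A5, had 86.6, 86.8 and 57.0 CPM in treated libraries, against 77.8, 77.3 and 91.5 CPM in controls. The groups overlapped, at -0.09 ± 0.17 (SE, edgeR adjusted p = 0.907). Epha7 (ENSMUSG00000028289, chromosome 4, 28813131 to 28967499, plus strand), a further neuronal receptor, had 10.3, 13.3 and 10.9 CPM in treated libraries, against 9.46, 9.42 and 9.87 CPM in controls. Every treated library was above the controls, by a small margin, at 0.26 ± 0.16 (SE, edgeR adjusted p = 0.746). Epha6 had 28.3, 23.4 and 24.3 CPM in treated libraries, against 17.9, 18.1 and 24.0 CPM in controls. Only control replicate 3 reached into the treated range, and the log2 fold change was 0.34 ± 0.15 (SE, edgeR adjusted p = 0.737). Epha2, typical of epithelia and endothelia, was at 0.59 ± 0.33, Epha3 at 0.09 ± 0.29, Epha4, which binds both ephrin classes, at -0.17 ± 0.27 and Epha10 at -0.48 ± 0.32 (SE). Epha1 and Epha8 were not tested, Epha1 with 28 counts over the treated and 13 over the control libraries and 6.01% of its exon bases shared with Zyx on the opposite strand, and Epha8 with 64 over the treated and 20 over the control libraries.

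In the EphB receptors, 4 of 5 log2 fold changes were positive, against 52.8% of all genes. None of the 5 separated the groups, against 14.7% of all genes that did. Ephb6 (ENSMUSG00000029869, chromosome 6, 41605482 to 41620509, plus strand), which lacks kinase activity, was the most abundant per kilobase. It had 26.2, 42.4 and 18.1 CPM in treated libraries, against 21.1, 33.9 and 21.4 CPM in controls, at 0.19 ± 0.34 (SE, edgeR adjusted p = 0.908). Treated replicate 2 and control replicate 2 were the highest of their groups. The 7 Schwann cell markers summed to 1399, 2123 and 2219 CPM in treated and 1141, 1816 and 1211 CPM in control libraries. Their sum was likewise highest in control replicate 2 among controls. Among treated libraries it was highest in replicate 3, where Ephb6 was lowest. The part of these cells was not tested. Ephb4, a marker of veins, had 11.8, 16.3 and 25.9 CPM in treated libraries, against 13.7, 13.3 and 13.1 CPM in controls. It was at 0.42 ± 0.27 (SE), and at 0.07 without treated replicate 3. Ephb1, a neuronal receptor of ephrin-B ligands, was at 0.61 ± 0.30 (SE), and its relatives Ephb2 and Ephb3 were at -0.12 ± 0.27 and at 0.13 ± 0.30 (SE).

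**Figure D3:**
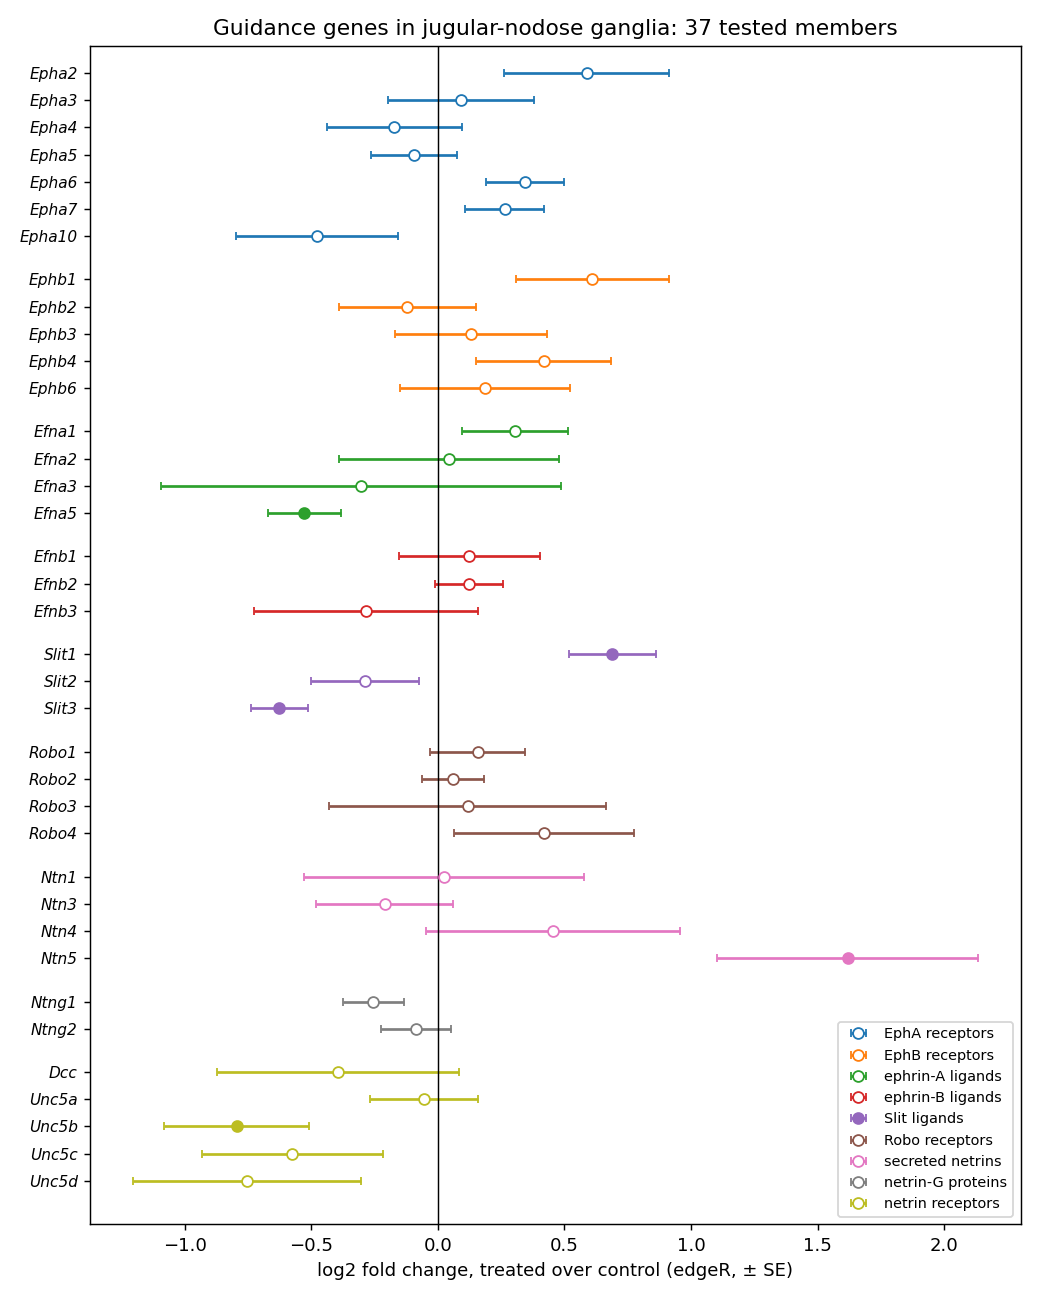
Log2 fold change of treated over control (horizontal axis, edgeR, ± SE) of the 37 tested guidance genes, grouped by subfamily, with filled points at an unadjusted p under 0.05. Filled points are Slit1 at 0.69 and Ntn5 at 1.62 to the right of 0, and Slit3 at -0.63, Efna5 at -0.53 and Unc5b at -0.79 to the left, while all 5 netrin receptors lie left of 0.

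Per kilobase the order of levels was led by Robo2 in both groups, at 16.9 ± 2.41 CPM per kb in treated and 16.2 ± 0.852 CPM per kb in control ganglia (SD, n = 3 each). In controls it was followed by Efna5 at 12.2 ± 1.05, Slit1 at 8.78 ± 0.990, Ntng2 at 8.26 ± 1.09, Ntng1 at 8.11 ± 0.421 and Slit3 at 7.61 ± 0.0854 CPM per kb. The control libraries of Slit1, Ntng2 and Ntng1 overlapped. Slit3 lay just below the lowest library of Ntng1 but above the lowest of Ntng2, which was at 7.01 CPM per kb. In treated ganglia Slit1 was next after Robo2 at 14.2 ± 3.21 CPM per kb, with overlapping libraries, and Slit3 had rank 10 at 4.92 ± 0.620 CPM per kb. Among receptors Robo2 was followed in controls by Unc5c at 6.95 ± 0.467 CPM per kb and Ephb6 at 6.74 ± 1.94 CPM per kb, which did not differ beyond their spread. Summed over all 40 genes the level was 1109, 1130 and 938 CPM in treated and 1141, 1117 and 1094 CPM in control libraries. Treated replicate 3 was the low one.

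Each library was left out in turn, and the values without treated replicate 3 are given here because it stood apart. Of the guidance genes tested without it, 12 of 39 had an unadjusted p under 0.05 in edgeR, against 7.94% of all genes, and none passed after adjustment, where 0.0537% of all genes did. Of the 37 tested in all libraries, 13 then had both treated libraries to one side of the controls, against 23.6% of all genes, a count added after seeing the data. These 13 were the 8 named above together with Efnb1 and Efnb3 below and Robo1, Robo2 and Unc5a above the controls.

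**Figure D4:**
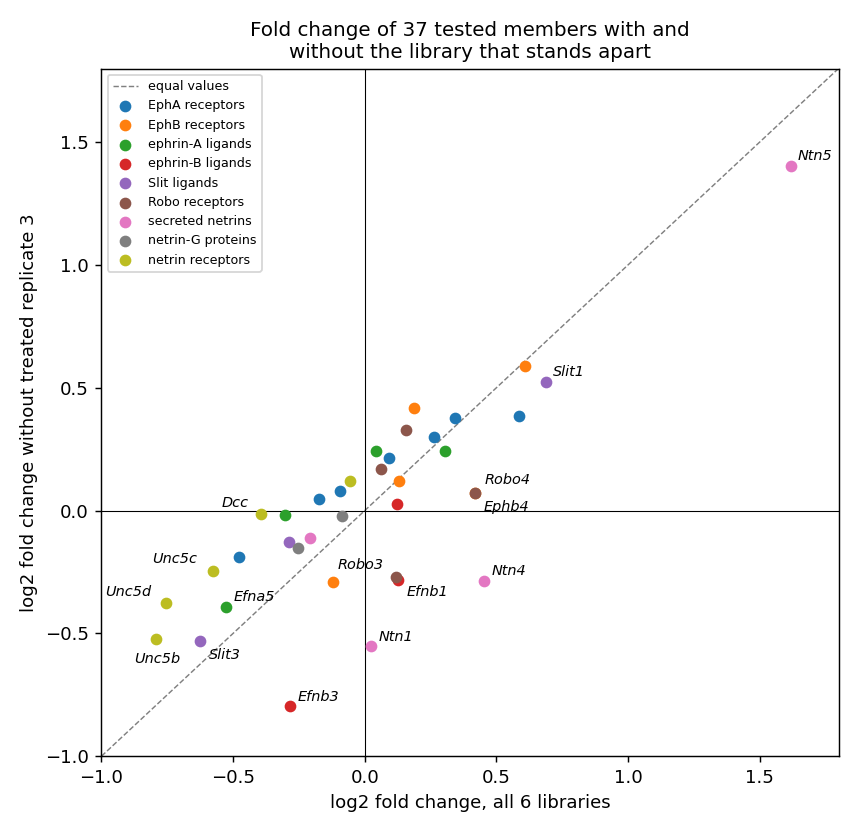
Log2 fold change of the 37 tested guidance genes with all 6 libraries (horizontal axis) and without treated replicate 3 (vertical axis), coloured by subfamily, with a dashed line of equal values. Slit1, Slit3, Efna5, Ntn5 and Unc5b keep their sign, whereas Ntn4 stands at 0.45 with that library and at -0.29 without it.

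The adaptors, cytoplasmic effectors and further ligands of these receptors were read from 3 lists with 52 genes, all of them tested. None passed after adjustment over all genes, and 6 of the 52 (11.5%) had an unadjusted p under 0.05, against 6.67% of all genes, each of them higher in treated ganglia. These lists were chosen with earlier results of these data known, so that share is given only as a description. Flrt3, a membrane protein that binds UNC5 and Robo1, had 36.8, 48.5 and 36.0 CPM in treated libraries, against 22.8, 24.1 and 26.2 CPM in controls. Its treated libraries were well clear of the controls, with a log2 fold change of 0.73 ± 0.14 (SE, edgeR adjusted p = 0.527). Draxin, a secreted netrin antagonist, had 5.09, 9.72 and 4.06 CPM in treated libraries, against 2.98, 3.39 and 3.58 CPM in controls. Treated replicate 2 was the highest and the log2 fold change was 0.93 ± 0.35 (SE, edgeR adjusted p = 0.727). Srgap1, a GTPase-activating protein that acts below Robo receptors, averaged 124 ± 5.34 CPM in treated and 100.2 ± 3.97 CPM in control ganglia (SD, n = 3 each), at 0.30 ± 0.08 (SE). Trim9, a ubiquitin ligase that binds DCC, was at 0.30 ± 0.09, the Rac activator Dock1 at 0.45 ± 0.18 and the exchange factor Vav2, which acts below Eph receptors, at 0.46 ± 0.16 (SE). By list, the median log2 fold change was 0.08 for 18 Eph and ephrin partners, -0.09 for 14 Slit-Robo partners and 0.07 for 20 netrin partners.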

How the data were processed

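Total RNA from 6 ganglion samples was made into strand-specific libraries, per the labels' protocols. The authors deposited raw counts per gene, and the submitters' processing notes name bcl2fastq 2.20, STAR 2.7.7a, DESeq2, edgeR and mm10. For the counting program, its annotation release and its strand setting, the entry is "not given in the sources used here". Lines that held file totals were left out. Counts were filtered with filterByExpr (minimum count 10), scaled by TMM and tested with edgeR 4.0.16 (quasi-likelihood, Benjamini-Hochberg over 16019 genes, R 4.3.3), after a test on simulated data. DESeq2 1.42.0, limma 3.58.1 voom with sample weights, other scalings, no filter, a replicate block and leaving out each library were the alternatives. Exact permutation tests used log2(CPM + 0.1). Gene positions and exon lengths are from GENCODE M21 (GRCm38, the build mm10), and promoters from RefSeq (GRCm38.p6), found for 35 of 40 genes.

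Genes described in full had an unadjusted edgeR p under 0.05, no overlap between groups, or the highest level per kilobase of their subfamily. The genes and lists were chosen with earlier results of these data known.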

Additional observations from a re-analysis of the deposited data

How the results depend on the processing

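At an adjusted p under 0.05, edgeR called 0 of all genes and 0 guidance genes (1068 and 5 at an unadjusted p under 0.05). Over all genes the count was 26 with no low-count filter, 89 with DESeq2, 9 with limma-voom sample weights and 0 to 9 when each library was left out, highest without treated replicate 3. DESeq2 called 1 guidance gene, Slit3. The 5 guidance genes at an unadjusted p under 0.05 (6.67% of all genes) became 8 with sample weights (11.2% of all genes) and 4 to 12 when each library was left out (3.27% to 10.8% of all genes, and 7.94% without treated replicate 3, which gave the 12). Without treated replicate 3 the count with no overlap was 13 (23.6% of all genes), in place of 8 (14.7% of all genes), an alternative chosen after seeing the data. The cause of these shifts was not tested.

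Deviations from the group mean correlated at 0.0142, 0.564 and 0.488 between same-numbered libraries 1, 2 and 3. Libraries of unlike number gave -0.495 to 0.253. Replicates 2 and 3 were thus more alike within their number than across numbers. Replicate 1 was not, since treated replicate 1 correlated more with control replicate 2, at 0.253. Because deviations are taken from the mean of their own group, a high value for a pair lowers others, which builds in part of that contrast. No label pairs the samples or names a batch, so the main test did not use the numbers. Whether they mark a shared batch was not tested. A replicate block gave 1 gene of the whole table at an adjusted p under 0.05, 6 guidance genes at an unadjusted p under 0.05 (9.43% of all genes), and -0.056 for Ntn1.

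Without division by exon length the shares were 57.2% for Epha5, 76.9% for Efna5, 45.7% for Efnb1, 47.7% for Slit1, 88.5% for Robo2, 45.5% for Ntn4, 34.4% for Ntng2 and 60.4% for Unc5c, and Efnb2 and Ntng1 then led their subfamilies. The sign turned with sample weights for Efnb1 at -0.18, Epha4 at 0.0097, Epha5 at 0.0549, Ntn1 at -0.24, Ntn4 at -0.16, Robo3 at -0.21 and Unc5a at 0.0944, and with no filter for Ntn1 at -0.0014. Of 444 alternative fold changes, 416 kept their direction, and 22 genes never reversed. Leaving out each library gave -0.23 to 0.27 for Efna2, -0.28 to 0.32 for Efnb1, -0.80 to 0.0345 for Efnb3, -0.10 to 0.22 for Epha3, -0.40 to 0.0457 for Epha4, -0.20 to 0.0787 for Epha5, -0.30 to 0.0761 for Ephb2 and -0.0734 to 0.59 for Ephb3. It gave -0.21 to 0.45 for Ephb6, -0.55 to 0.49 for Ntn1, -0.29 to 0.79 for Ntn4, -0.0376 to 0.33 for Robo1, -0.0407 to 0.17 for Robo2, -0.27 to 0.43 for Robo3 and -0.17 to 0.12 for Unc5a. Depth limits Ntn5, Robo3 and Efna3, with 112, 54 and 34 counts over the treated and 32, 43 and 31 over the control libraries.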
